A study of Mus musculus with 24 samples.

Results

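The *Tyro3*, *Ltk* and *Itpka* locus is a stretch of mouse chromosome 2 between 119.70 and 119.84 Mb (build GRCm38) that holds *Rtf1*, *Itpka*, *Ltk*, *Rpap1* and *Tyro3*. Its members are the differentially 5-hydroxymethylated regions (DhMRs) whose midpoint lay within those limits. They numbered 115, out of 20726 windows in both lists of the series and out of 12096 windows listed as higher in Wt25. All 115 were higher in Wt25 and 0 were higher in AA10. The stretch was chosen by the density, the direction and the CpG number of these same windows, so these quantities are given as a description and none of them was tested.

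The windows came from 5hmC-DIP, in which an antibody against 5-hydroxymethylcytosine (5hmC) recovers DNA fragments for sequencing, with 3 libraries of each line. Both lines were mouse embryonic stem cells (ESCs) of mixed C57BL/6J-129V background, without functional *Tet1*, *Tet2* and *Tet3* genes, grown in 2i medium and infected with a lentivirus for human Tet3. Wt25 carried wild-type Tet3 and AA10 a phosphor mutant with serines changed to alanine, and each line was a single clone selected with puromycin. The lists compare 1 clone with 1 other clone, so the form of Tet3 and the clone cannot be told apart. They give 1 list of positions per direction over all libraries, without counts, fold changes or *P*-values, and the depth behind a single window is unknown. No difference between replicates could therefore be computed, and the intervals below (95%, Wilson) cover counting error only and take neighbouring windows as independent.

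Tet enzymes oxidise 5-methylcytosine to 5hmC, mostly at CpG dinucleotides, on the way to demethylated DNA. In ESCs 5hmC is typically found in gene bodies, at enhancers and at the edges of CpG islands, whereas the core of a CpG island at an active promoter usually carries little methylation of either kind. The genes of the locus have different roles. *Tyro3* encodes a receptor tyrosine kinase of the TAM family, with Axl and Mertk as its relatives, that binds Gas6 and protein S. *Ltk* encodes a receptor tyrosine kinase related to Alk. *Itpka* encodes a kinase that adds a phosphate to inositol trisphosphate and binds actin in neurons. *Rtf1* encodes a factor that works with the Paf1 complex during transcription elongation by RNA polymerase II, and *Rpap1* a protein associated with RNA polymerase II.

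Windows from the ends, the start sites, the *Ltk* coding sequence and a long unbroken block are printed first, because they show how far the members differ in CpG number. Sequences are those of GRCm38 on the forward strand, 5′ to 3′, with each CpG in capitals, and untranslated bases were left out. Each listed window spans 198 bp. The first window of the group (chr2:119709203-119709400) lay in intron 4 of *Rtf1* with 2 CpGs, and the last (chr2:119833603-119833800) lay beyond *Tyro3* with 1 CpG.
first window: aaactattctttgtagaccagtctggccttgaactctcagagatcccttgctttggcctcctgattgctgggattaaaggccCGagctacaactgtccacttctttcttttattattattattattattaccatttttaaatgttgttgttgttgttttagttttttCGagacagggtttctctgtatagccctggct
last window: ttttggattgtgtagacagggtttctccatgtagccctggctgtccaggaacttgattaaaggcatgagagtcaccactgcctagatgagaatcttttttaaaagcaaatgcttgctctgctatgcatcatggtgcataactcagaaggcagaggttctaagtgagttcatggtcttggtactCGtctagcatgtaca

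The *Itpka* window at the start site had 30 CpGs, of which 20 lie in the 134 bp upstream of the transcript (chr2:119742203-119742336). A window 836 bp upstream of the start (chr2:119741403-119741600) had 11 CpGs.
*Itpka* start, upstream bases: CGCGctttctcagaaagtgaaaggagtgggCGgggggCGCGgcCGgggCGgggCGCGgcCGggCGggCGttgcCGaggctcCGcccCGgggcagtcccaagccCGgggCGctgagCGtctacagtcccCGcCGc
*Itpka* upstream window: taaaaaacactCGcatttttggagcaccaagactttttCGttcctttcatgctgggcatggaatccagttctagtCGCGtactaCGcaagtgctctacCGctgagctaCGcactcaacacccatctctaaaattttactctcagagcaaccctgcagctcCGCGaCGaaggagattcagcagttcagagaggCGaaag

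One of the 2 windows with most CpGs lay at exon 7 of *Ltk* (chr2:119758003-119758200) and had 32. It holds 159 coding bases, and its printed bases after 119758161 lie in the intron between exons 6 and 7. The window just upstream of the CpG-rich start of the shorter *Ltk* transcripts (chr2:119758603-119758800) had 9. It lies inside the longest *Ltk* transcript, with its midpoint in intron 4 (119758662 to 119758755), and reaches into the exons on both sides.
*Ltk* exon 7: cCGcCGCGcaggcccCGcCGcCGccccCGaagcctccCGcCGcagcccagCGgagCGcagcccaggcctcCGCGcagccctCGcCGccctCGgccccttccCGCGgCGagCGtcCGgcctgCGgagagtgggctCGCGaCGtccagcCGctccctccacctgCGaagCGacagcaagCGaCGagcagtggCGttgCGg
*Ltk* upstream window: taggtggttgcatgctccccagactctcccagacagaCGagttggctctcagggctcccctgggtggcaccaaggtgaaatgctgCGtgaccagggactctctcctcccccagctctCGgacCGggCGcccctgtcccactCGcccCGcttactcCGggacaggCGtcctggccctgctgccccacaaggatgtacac

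At *Rpap1* the window upstream of the start site (chr2:119787603-119787800) had 13 CpGs. At *Tyro3* the window before the start site of its shorter transcript had 11 (chr2:119799203-119799400). The neighbouring window, which holds that start site, had 29, and 14 of these lie in the 111 bp upstream of the transcript (chr2:119799403-119799513).
*Rpap1* upstream window: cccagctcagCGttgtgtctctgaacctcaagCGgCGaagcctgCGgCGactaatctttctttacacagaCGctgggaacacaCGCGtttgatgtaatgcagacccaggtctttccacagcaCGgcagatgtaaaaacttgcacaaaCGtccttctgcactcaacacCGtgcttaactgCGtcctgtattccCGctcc
*Tyro3* upstream window: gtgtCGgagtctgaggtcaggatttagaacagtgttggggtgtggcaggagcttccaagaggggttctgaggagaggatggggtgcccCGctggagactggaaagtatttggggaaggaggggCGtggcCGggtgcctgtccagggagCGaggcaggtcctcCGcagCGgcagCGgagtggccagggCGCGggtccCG
*Tyro3* start, upstream bases: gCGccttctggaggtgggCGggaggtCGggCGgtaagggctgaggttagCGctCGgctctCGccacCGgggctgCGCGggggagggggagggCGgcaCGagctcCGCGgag

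The window from intron 12 of *Rtf1* (chr2:119728003-119728200) belonged to one of the 2 longest unbroken blocks of windows and had 1 CpG.
*Rtf1* block: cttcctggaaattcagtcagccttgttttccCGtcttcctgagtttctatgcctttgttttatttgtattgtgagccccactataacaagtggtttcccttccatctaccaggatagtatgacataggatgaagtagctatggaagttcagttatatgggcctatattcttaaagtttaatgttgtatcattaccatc

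All 5 genes held windows higher in Wt25 in their bodies, and 0 windows higher in AA10 lay in any of them. *Rpap1* (119763959 to 119787537, minus strand, 23.6 kb) held 27 windows, the most of the 5. *Itpka* (119742337 to 119751253, plus strand, 8.92 kb) held 16, and *Rtf1* (119675068 to 119735407, plus strand, 60.3 kb) held 15. *Tyro3* (119797740 to 119818104, plus strand, 20.4 kb) held 13, and *Ltk* (119751326 to 119760431, minus strand, 9.11 kb) held 12. Of 26182 RefSeq genes, 9 held more windows higher in Wt25 than *Rpap1* and 50 held more than *Ltk*. Over the genome, 0.0914% of the 13237130 bins of 200 bp without unknown bases were listed as higher in Wt25 and 0.0652% as higher in AA10; the number of bins that the authors tested is not given in the sources used here.

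Per length the order was different. *Itpka* had 17.9 windows per 10 kb, with 36.4% of its 44 bins listed (interval 23.8% to 51.1%). *Ltk* had 13.2 per 10 kb and 26.7% of 45 bins (16.0% to 41.0%), and *Rpap1* had 11.5 per 10 kb and 22.9% of 118 bins (16.2% to 31.2%). These 3 genes lie side by side. *Tyro3* followed with 6.38 windows per 10 kb and 12.7% of 102 bins (7.60% to 20.6%), and *Rtf1* was lowest with 2.49 per 10 kb and 4.97% of 302 bins (3.03% to 8.03%). Both stand at the ends of the group.

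**Figure D1:**
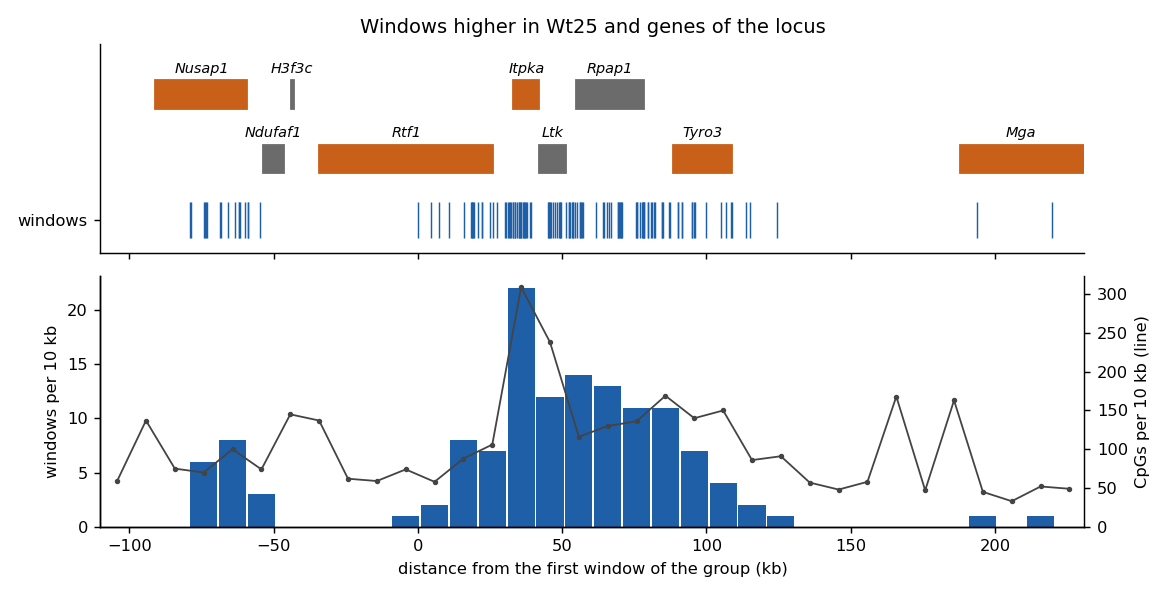
The upper panel shows windows (blue ticks) and RefSeq genes (orange, plus strand; grey, minus strand) by distance in kb from the first window of the group, and the lower panel gives windows per 10 kb (bars) and CpGs per 10 kb (line). Windows were densest about *Itpka*, with 22 in 10 kb where the CpG line was also highest at 309, and thinned out toward both ends; gaps of 54.6 and 69.0 kb without windows border the group, with 17 windows beyond the left one and 2 beyond the right one in the stretch shown.

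Within the genes, most windows lay in introns. Introns also made up 54.7% of the unlisted bins of the locus, by the features of the next paragraph. Here a window takes the exon or intron at its midpoint in the longest transcript, also where the next paragraph counts it as promoter. In *Itpka*, 15 of the 16 windows lay in intron 1, which is 6.33 kb of the 8.92 kb of the gene, and 1 lay in exon 1. In *Rpap1*, 23 of 27 lay in introns, with 7 in intron 6, 6 in intron 2 and 5 in intron 23. Intron 6 of *Rpap1* is 1.72 kb long, and its 7 windows fell into 2 blocks, one of 4 and one of 3 windows. In *Rtf1*, 11 of 15 lay in introns, 4 of them in intron 12 and 3 in intron 6, and the remaining 4 lay in exons 13, 15 and 18. All 15 lay in intron 4 or farther downstream. In *Ltk*, 9 of 12 lay in introns and the other 3 in exons 6, 7 and 11. In *Tyro3*, 11 of 13 lay in introns, 4 of them in intron 2 of the longer transcript, and 2 lay in exon 20, the last one. Between the genes there were 9 windows from *Rtf1* to *Itpka* (6.93 kb), 8 from *Ltk* to *Rpap1* (3.53 kb), 12 from *Rpap1* to *Tyro3* (10.2 kb) and 3 from *Tyro3* to the right limit (21.9 kb). The 72 bp between *Itpka* and *Ltk* are shorter than a window. The 3.53 kb between the ends of *Ltk* and *Rpap1* had 22.7 windows per 10 kb, a higher density than any of the 5 genes, although the mean of its windows was 1.50 ± 1.07 CpGs (SD, n = 8). The snoRNA gene *Gm25857* overlapped 0 windows and the snRNA gene *Gm23814* overlapped 2.

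By annotated feature, each window taking the feature at its midpoint, 65 windows were intronic (56.5%), 25 intergenic (21.7%), 10 in promoters (8.70%) and 9 in coding exons (7.83%). A promoter here runs from 1 kb before to 100 bp after a RefSeq start site. The unlisted bins of the same limits gave 54.7% intron, 26.2% intergenic, 3.76% promoter and 8.21% coding exon (n = 585). Read the other way, 31.3% of the 32 promoter bins were listed (interval 18.0% to 48.6%), against 16.9% of the 385 intron bins (13.5% to 20.9%), 15.8% of the 57 coding exon bins (8.54% to 27.4%) and 14.0% of the 178 intergenic bins (9.70% to 19.9%). Of 19 bins in 3′ untranslated regions, 4 were listed (21.1%, interval 8.51% to 43.3%). Of 25 bins at termination sites, from 100 bp before to 1 kb after a transcript end, 2 were listed (8.00%, 2.22% to 25.0%). The promoter share was the highest, and its interval overlapped those of the other features given.

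CpG number varied widely among the members. They had 4.40 ± 6.25 CpGs per window (SD, n = 115), from 1 to 32, with a median of 2. Unlisted bins of the locus had 2.37 ± 3.07 (n = 585), also with a median of 2. The other 11981 windows higher in Wt25 had 3.24 ± 2.46 and a median of 3, and the windows higher in AA10 had 3.16 ± 2.36 (n = 8630) and a median of 3. The mean of the locus was thus above that of the other windows while its median was below. The difference in the mean rested on few members: 15 windows (13.0%, interval 8.07% to 20.4%) had 10 or more CpGs, compared with 277 of the other windows higher in Wt25 (2.31%). The remaining 100 windows had 2.36 ± 1.64 CpGs, below the 3.01 of the other windows when those with 10 or more were also left out. There were 35 windows with 1 CpG (30.4%), and 0 without a CpG, whereas 138 unlisted bins (23.6%) had none.

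**Figure D2:**
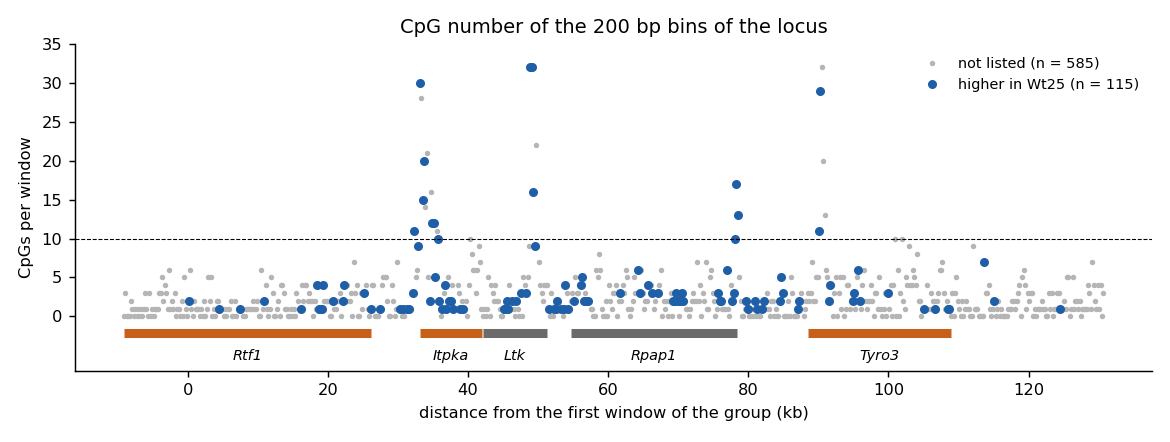
Each point is a 200 bp bin, with its CpG number against its distance in kb from the first window; blue points are the 115 windows higher in Wt25 and grey points the 585 unlisted bins, and the dashed line marks 10 CpGs. Most blue points lie below 5 CpGs, and those with 10 or more stand at *Itpka*, *Ltk*, *Rpap1* and *Tyro3*, among grey points of 10 or more at *Itpka*, *Ltk* and *Tyro3* but not at *Rpap1*.

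The share of bins that were listed did not rise steadily with CpG number. It was 0% of 138 bins with no CpG (upper bound 2.71%), 18.9% of 185 bins with 1 CpG, 26.2% of 126 with 2, 16.2% of 142 with 3 to 4 and 11.0% of 82 with 5 to 9. It was highest, 55.6%, in the 27 bins with 10 or more (interval 37.3% to 72.4%). The class of 5 to 9 CpGs was the lowest that held windows (5.88% to 19.6%). CpG number was part of the choice of the stretch, so no class was tested against another. In the rest of the genome the shares were 0.00126% of bins with no CpG, 0.0715% with 1 and 0.117% with 2. They were 0.194% with 3 to 4, 0.308% with 5 to 9 and 0.219% with 10 or more. There the class of 5 to 9 CpGs was the highest. In the stretches of 140 kb on either side of the limits, 0 of 14 bins with 10 or more CpGs were listed on the left and 0 of 14 on the right, each with an upper bound of 21.5%.

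**Figure D3:**
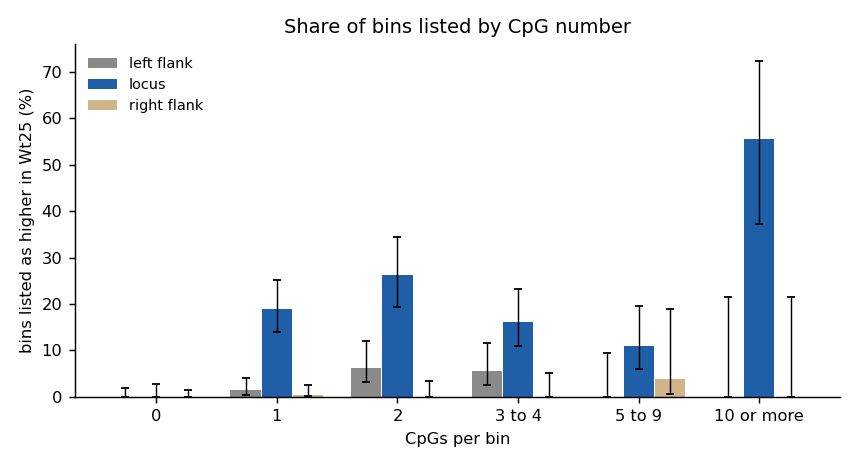
Bars give the percentage of 200 bp bins listed as higher in Wt25 in each class of CpG number, for the locus (blue) and for the 140 kb to its left (grey) and right (tan), with 95% Wilson intervals as error bars. In the locus 55.6% of bins with 10 or more CpGs were listed and 11.0% of those with 5 to 9, and the flanks reached at most 6.30%.

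The 27 bins with 10 or more CpGs stood near 4 of the genes. *Itpka* was the nearest start for 13 of them, and 7 were listed. *Ltk* had 4 with 3 listed, *Rpap1* 3 with 3 listed, and *Tyro3* 7 with 2 listed. Listed and unlisted bins of this class had similar CpG numbers, with means of 18.0 and 17.3. At *Tyro3* an unlisted bin with 32 CpGs lay next to the listed window with 29.

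The bin that holds the start site was listed at *Itpka* (30 CpGs), at the start of the shorter *Ltk* transcripts (119758525, 16 CpGs), at *Rpap1* (17 CpGs) and at the start of the shorter *Tyro3* transcript (119799514, 29 CpGs). Start sites in poorer sequence were not in a listed window. These were the longer *Ltk* transcript, with 14 CpGs within 500 bp of its start, and the longer *Tyro3* transcript, with 11. The longer *Ltk* start still had 1 listed window, with 1 CpG, in the 1 kb upstream (chr2:119760603-119760800) and 0 in the 1 kb downstream. The longer *Tyro3* start had 0 within 1 kb on either side. At the 4 starts in listed bins, the sides differed from gene to gene. *Itpka* had 3 windows in the 1 kb upstream and 2 in the 1 kb downstream of the start. *Ltk* had 1 upstream and 3 downstream, and *Rpap1* 1 upstream and 4 downstream. *Tyro3* had 2 upstream and 0 of 5 bins downstream, where the mean was 15.2 CpGs per bin. From 1 to 5 kb downstream, 12 of 20 bins were listed at *Itpka*, 8 at *Ltk*, 4 at *Rpap1* and 4 at *Tyro3*. Over the same distance upstream, 5 of 20 were listed at *Itpka*, 8 at *Ltk*, 6 at *Rpap1* and 2 at *Tyro3*. The start site of *Rtf1*, left of the limits, had 88 CpGs within 500 bp, and its nearest window lay 34233 bp downstream. Over all members the median distance to the nearest start site was 3824 bp, with 17 windows within 1 kb and 26 farther than 10 kb.

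**Figure D4:**
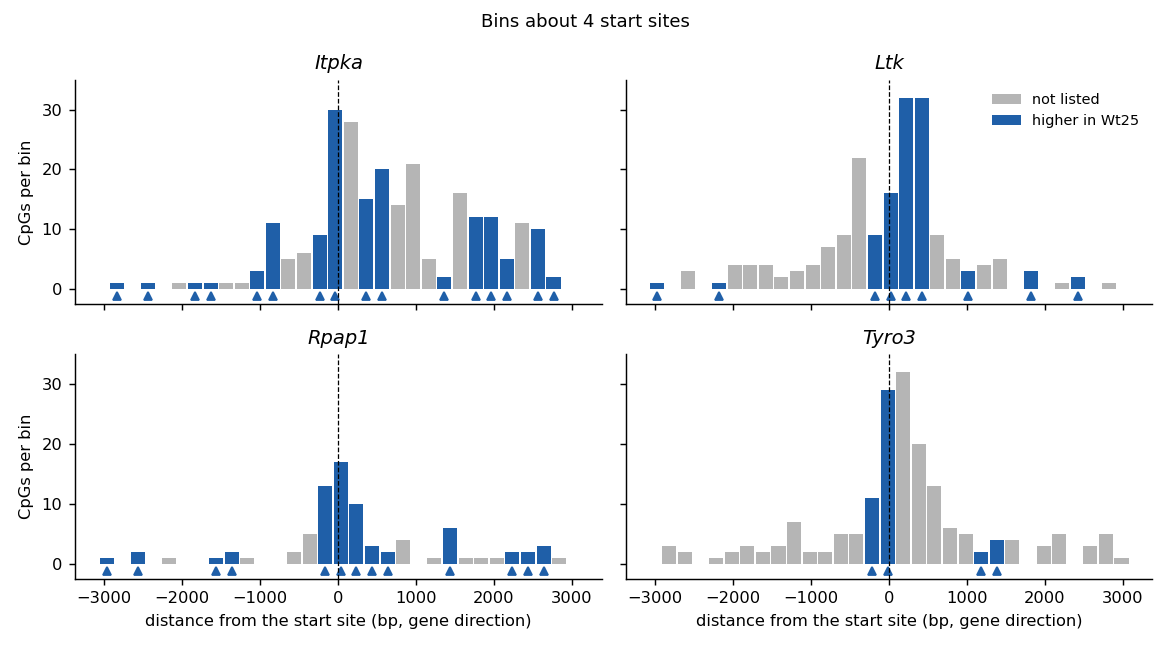
Each bar is a 200 bp bin within 3 kb of a start site in the direction of the gene, with its CpG number; blue bars with a triangle are windows higher in Wt25 and grey bars are unlisted. A blue bar stands at each of the 4 starts, at *Itpka* the next bar downstream, with 28 CpGs, is grey, and at *Tyro3* the 5 bars of the first 1 kb downstream are grey, the highest with 32 CpGs, and blue bars with 2 and 4 CpGs follow.

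Under a strict definition of a CpG island (at least 500 bp, GC of at least 55% and an observed to expected CpG ratio of at least 0.65), the locus held 5 islands. A pair lay at *Itpka*, of 1490 and 688 bp, another pair at *Ltk*, of 757 and 514 bp, and 1 of 955 bp at *Tyro3*. Each of the 5 held at least 1 window, and 12 of their 23 bins were listed (52.2%, interval 33.0% to 70.8%), against 103 of 677 bins outside them (15.2%, 12.7% to 18.1%). Looser limits (GC over 50%, ratio over 0.6) were applied to each stretch of 200 bp, and overlapping stretches were joined. This gave 16 islands, and 8 held a window. These 8 included all 4 that hold a start site. The limits were not applied again after joining, so the ratio of a joined island could be below 0.6, with 0.469 as the lowest. The *Rpap1* start lay in one of the looser islands, of 800 bp with 46 CpGs, and 3 of its 4 bins were listed. In either case most members were outside islands, since 10.4% of the windows lay in strict islands and 15.7% in looser ones.

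GC content, repeat marks and copies elsewhere differed less between listed windows and unlisted bins than the mean CpG number did. GC content was 49.4% ± 9.86 (SD, n = 115) in the windows and 47.4% ± 7.49 (n = 585) in unlisted bins. Bases marked as repeats made up 29.9% ± 31.4 of a window and 31.7% ± 31.1 of an unlisted bin. Sequences of 32 bases that also occur elsewhere in the genome made up 9.93% of the windows and 9.55% of the unlisted bins, and 82 of 115 windows (71.3%) held none. The sequence CCGG was in 33 of the windows (28.7%, interval 21.2% to 37.5%) and in 92 of the unlisted bins (15.7%, 13.0% to 18.9%). CCGG contains a CpG, so this share is not a measure apart from CpG number.

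The group ran from 119709203 to 119833800, a length of 125 kb, of which 18.5% of bins were listed. On the left, the closest window outside the limits ended at 119654600, and a gap of 54.6 kb with 0 windows followed. That gap holds *Ndufaf1*, *H3f3c* and the 5′ part of *Rtf1*, and 23 of its 273 bins had 5 or more CpGs. Beyond it were 17 windows higher in Wt25 over 24.6 kb, 14 of them in *Nusap1*, with 2.41 ± 1.06 CpGs (SD, n = 17) and at most 4. On the right, a gap of 69.0 kb reached to the next window, deposited under *Mga*. It held 29 bins with 5 or more CpGs, and 0 of its 345 bins were listed, which allows a share of up to 1.10%. The closest windows higher in AA10 lay 445 kb to the left and 142 kb to the right of the group. Of the bins within the limits, 16.4% were listed (interval 13.9% to 19.4%), against 2.43% in the 140 kb to the left (1.52% to 3.85%) and 0.286% in the 140 kb to the right (0.0784% to 1.04%).

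Inside the group the windows came in short blocks. Windows that touch formed 68 blocks, of which 39 were single windows, 18 pairs, 6 of 3 windows, 3 of 4 and 2 of 5. The blocks of 5 lay in *Rtf1* (119727601 to 119728600, 11 CpGs in 1000 bp) and across the start of *Rpap1* (119786801 to 119787800, 45 CpGs). The block richest in CpG spanned 800 bp of *Ltk* (119758001 to 119758800) and had 89. The median gap between neighbours was 200 bp, and 8 of 114 gaps exceeded 4 kb. Among these, the 5.60 kb from the 3′ part of intron 1 of *Itpka* into *Ltk* had 3.14 CpGs per bin and 8 bins with 5 or more, and the 5.00 kb in the 3′ part of *Tyro3* had 3.80 CpGs per bin and also 8 such bins. The group was therefore broken at CpG-rich as well as at CpG-poor sequence, with 1.54 CpGs per bin in its longest gap of 9.20 kb.

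The deposited gene of a window is not always the gene that holds it. The lists gave 40 windows to *Itpka*, 29 to *Ltk*, 25 to *Rpap1* and 21 to *Tyro3*, and 0 to *Rtf1*. All 15 windows inside *Rtf1* were deposited under *Itpka*, and 9 of the 27 inside *Rpap1* under *Ltk*. In all, 59 windows (51.3%) lay inside their deposited gene, 24 (20.9%) inside another member and 32 (27.8%) inside none of the 5.

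The group was set beside the other dense groups, each a series of 20 or more neighbouring windows in 1 direction and no more than 10 kb apart. There were 27 such groups higher in Wt25 and 22 higher in AA10. With 115 windows the locus was the second of the 27 by number, after a group of 120 windows over 159 kb at *Sae1* on chromosome 7 (16242803 to 16401800). It was also the second by length and the eighth by density, at 9.23 windows per 10 kb. It had the highest mean CpG number, 4.40, where the other 26 ranged from 1.52 to 3.49. The *Sae1* group had 2.58 ± 3.19 CpGs per window (SD, n = 120) and 3 windows with 10 or more, against 15 at the *Tyro3*, *Ltk* and *Itpka* locus. Of the *Sae1* group, 79 windows lay in *Sae1*, which encodes a subunit of the SUMO-activating enzyme, 8 in the apoptosis gene *Bbc3* and 2 in the complement receptor gene *C5ar1*. Both groups held 0 windows higher in AA10, as any such group must, because a window of the other direction ends a group. The DNA copy number of these stretches in the 2 clones was not analysed here.

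**Figure D5:**
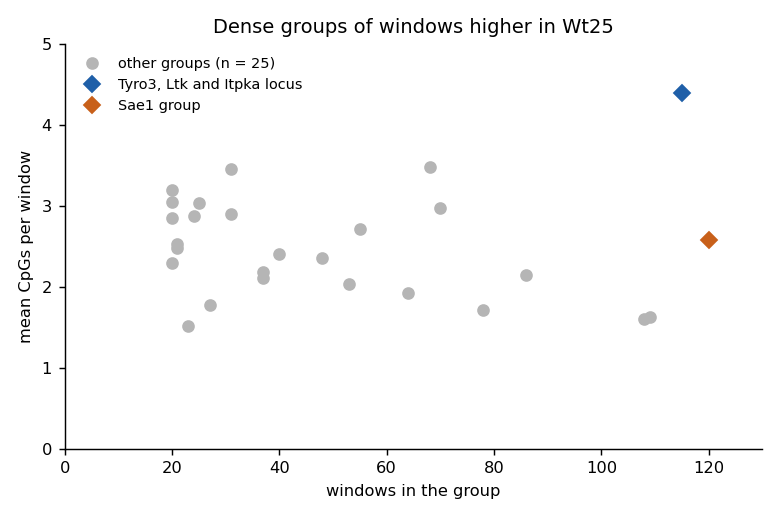
Each point is a dense group of windows higher in Wt25, with the number of windows on the x axis and the mean CpGs per window on the y axis. The locus (blue, 115 windows, 4.40 CpGs) stands above the *Sae1* group (orange, 120 windows, 2.58 CpGs) and the other groups (grey, at most 3.49).

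Relatives and partners of the 5 genes elsewhere in the genome held at most 3 windows each. Of 16 such genes, 4 held a window higher in Wt25 (25%), 4 a window higher in AA10 (25%) and 10 held none. Among all 26182 RefSeq genes, of any length, 11.3% held a window higher in Wt25 and 8.46% one higher in AA10. Among the relatives of *Tyro3*, the receptor genes *Axl* and *Mertk* and the ligand gene *Pros1* held 0 windows, and the ligand gene *Gas6* held 2 higher in Wt25. *Alk*, the relative of *Ltk*, held 1 higher in Wt25 and 2 higher in AA10 over 735 kb, and the ligand genes *Alkal1* and *Alkal2* held 0. Of the kinase genes related to *Itpka*, *Itpkb* held 0 and *Itpkc* held 1 higher in AA10. Of the Paf1 complex, whose subunits work with Rtf1, *Paf1* held 2 higher in Wt25 and *Ctr9* 1 in each direction, while *Cdc73*, *Leo1* and *Wdr61* held 0. *Rpap2* held 1 higher in AA10 and *Rpap3* held 0.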

How the data were processed

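The authors mapped 5hmC-DIP reads to GRCm38 with STAR, keeping unique alignments, and removed duplicates with Picard. MEDIPS then compared the 3 replicates of Wt25 with the 3 of AA10 in 200 bp bins that held a minimal number of reads, at *P* under 0.05 and a fold change of 1 or more. Bins in IgG-DIP peaks, simple repeats or sequence of low complexity were discarded by the authors, and HOMER gave each remaining bin a gene. The deposited lists hold a chromosome, start, end and gene per window and no other value. Tool versions are not given in the sources used here.

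The members, gene lists and settings were chosen with earlier results of these data known. CpGs, GC content and repeat marks came from GRCm38.p6, and genes from its curated RefSeq transcripts, with GENCODE vM21 basic as an alternative. The named genes are the members, other annotated genes within the limits, the nearest genes beyond the borders, the genes of the *Sae1* group and relatives of the members. All deposited gene identifiers of the 115 members matched a gene name. The code was checked on simulated sequences with known answers. Python 3.11.15, numpy 2.4.6, pandas 2.3.3 and matplotlib 3.10.9 were used.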

Additional observations from a re-analysis of the deposited data

How the results depend on the processing

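No paired analysis was possible because the lists hold no value for a replicate. For the same reason no replicate could be left out and no threshold on depth or *P*-value could be changed. The number of members stayed at 115 when any overlap with the limits was counted. Splitting at gaps over 5 kb in place of 10 kb left 68 windows in the largest remaining piece, from *Ltk* into *Tyro3*, with gaps measured between listed bases, which are 2 bp fewer than a bin. Measured between full bins, a choice added after seeing the data, the gap of 5.00 kb in *Tyro3* was kept and the piece held 74 windows. Windows assigned to the nearest start site came to 40 for *Itpka*, 29 for *Ltk*, 21 for *Tyro3* and 0 for *Rtf1*. Promoters of 1 kb to both sides held 17 windows, coding exons touched by any base 19, and intergenic sequence by GENCODE basic 16. Joining windows within 1 kb left 28 blocks, the strict definition left 5 CpG islands, and sequences of 24 bases found elsewhere made up 14.1% of the windows. In bins that were at most 50% repeat, the share listed in each class of CpG number stayed within the interval of the value over all bins. The mean CpG number was 5.13 in such windows, 4.43 over full bins and 3.52 per 200 bp of joined blocks. The main value was 4.40, with a standard error of 0.583 that takes the 115 windows as independent.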
